A study of Mus musculus with 71 samples.

Results

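Of the 7480 Suz12 peaks called in wild-type mouse embryonic stem (ES) cells, 3374 were at least 1 kb and under 3 kb wide, and these middle-width peaks are described here. They were chosen by width alone, as the end minus the start of each peak in the authors' list, and made up 45.1% of all peaks and 53.2% of the bases that peaks covered (5.56 of 10.4 Mb). The remaining peaks were 3590 narrow ones under 1 kb and 516 broad ones of 3 kb or more. Since width chose the members, widths are given as a description only.

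The peaks came from chromatin immunoprecipitation (ChIP) with an antibody to Suz12 in 129B6F1 ES cells labelled Suz12 WT, from 1 peak list without replicates. RNA came from C57BL/6 ES cells in 3 groups of 3 polyA libraries: WT, cells labelled Ezh1/Ezh2 dKO (dKO), and cells labelled EZH2 rescue (rescue), which the submitters describe as expressing wild-type EZH2 again. Cells of every group were grown on gelatin in 2i medium, which keeps ES cells naive, and no group is labelled with an age, drug or time. Peaks and RNA were thus measured in different strains. How EZH2 was put back, which exons were deleted and whether each group is 1 clone is stated nowhere in the sources used here.

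Suz12 is the scaffold subunit of Polycomb repressive complex 2 (PRC2), whose alternative catalytic subunits Ezh1 and Ezh2 methylate lysine 27 of histone H3. In ES cells PRC2 gathers at CpG islands, stretches of DNA rich in unmethylated CpG dinucleotides, most of all at promoters of developmental regulators that are silent or weakly transcribed. Wide domains are best known from Hox clusters and other master regulators, while most bound promoters carry shorter stretches of the complex.

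Promoter sequence from RefSeq (GRCm38.p6, the assembly behind mm10) is shown first for genes that turn up among the largest RNA changes below, to show the CpG content of promoters inside middle-width peaks. Each window holds 300 bases, from 250 before to 50 after the annotated start, lies wholly inside a middle-width peak, reads 5′ to 3′ on the strand of its gene, and has every CpG in capitals. The first 4 belong to genes that rose in dKO and the next 3 to genes that fell. The windows of Nfix and Kdm7a, chosen after their values were seen, held the fewest and the most CpGs among called genes. Coro2a (chr4:46601880-46602179, minus strand), Mgll (chr6:88724162-88724461, plus strand), Neurl1b (chr17:26414609-26414908, plus strand) and Dock8 (chr19:24999279-24999578, plus strand) rose. Htr5a (chr5:27841697-27841996, plus strand), Thpo (chr16:20734462-20734761, minus strand) and Unc80 (chr1:66467684-66467983, plus strand) fell. The windows at the extremes were those of Nfix (chr8:84772826-84773125, minus strand) and Kdm7a (chr6:39206724-39207023, minus strand).
Coro2a: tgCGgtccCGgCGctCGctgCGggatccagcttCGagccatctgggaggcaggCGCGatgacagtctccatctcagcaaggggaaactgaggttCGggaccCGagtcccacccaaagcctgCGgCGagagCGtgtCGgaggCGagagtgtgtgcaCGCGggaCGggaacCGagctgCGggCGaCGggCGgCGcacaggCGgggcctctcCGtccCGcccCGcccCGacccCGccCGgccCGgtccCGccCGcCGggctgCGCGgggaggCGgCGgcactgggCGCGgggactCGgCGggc
Mgll: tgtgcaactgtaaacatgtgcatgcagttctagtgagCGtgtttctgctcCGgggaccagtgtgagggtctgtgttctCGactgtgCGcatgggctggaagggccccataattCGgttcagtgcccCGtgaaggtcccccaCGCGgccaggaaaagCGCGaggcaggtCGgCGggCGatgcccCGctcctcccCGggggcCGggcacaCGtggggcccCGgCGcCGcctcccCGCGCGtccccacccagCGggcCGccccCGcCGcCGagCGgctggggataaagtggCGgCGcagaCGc
Neurl1b: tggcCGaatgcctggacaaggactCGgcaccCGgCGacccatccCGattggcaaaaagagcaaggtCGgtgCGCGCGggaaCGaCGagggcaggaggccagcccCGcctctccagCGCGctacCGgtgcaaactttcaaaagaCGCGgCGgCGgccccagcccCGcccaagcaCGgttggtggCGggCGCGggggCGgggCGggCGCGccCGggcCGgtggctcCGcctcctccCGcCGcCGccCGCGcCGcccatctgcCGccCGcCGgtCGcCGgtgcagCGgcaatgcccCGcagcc
Dock8: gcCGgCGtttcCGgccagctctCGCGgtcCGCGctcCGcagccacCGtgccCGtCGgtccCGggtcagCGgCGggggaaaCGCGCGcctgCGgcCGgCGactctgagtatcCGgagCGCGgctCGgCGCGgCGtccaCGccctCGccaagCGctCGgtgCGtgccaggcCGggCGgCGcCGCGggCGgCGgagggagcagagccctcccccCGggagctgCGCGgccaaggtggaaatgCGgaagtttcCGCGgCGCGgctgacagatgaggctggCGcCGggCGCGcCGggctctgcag
Htr5a: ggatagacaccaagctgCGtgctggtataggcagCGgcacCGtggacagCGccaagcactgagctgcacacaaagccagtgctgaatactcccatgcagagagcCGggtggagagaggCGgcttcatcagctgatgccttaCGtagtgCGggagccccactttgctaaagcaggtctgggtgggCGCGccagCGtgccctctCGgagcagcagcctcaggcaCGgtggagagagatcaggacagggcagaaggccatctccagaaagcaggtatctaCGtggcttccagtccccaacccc
Thpo: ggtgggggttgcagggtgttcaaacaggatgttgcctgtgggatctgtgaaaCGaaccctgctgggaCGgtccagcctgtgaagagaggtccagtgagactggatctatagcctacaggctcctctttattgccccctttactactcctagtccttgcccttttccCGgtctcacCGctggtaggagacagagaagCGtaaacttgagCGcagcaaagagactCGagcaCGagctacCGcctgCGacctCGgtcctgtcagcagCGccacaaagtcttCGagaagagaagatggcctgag
Unc80: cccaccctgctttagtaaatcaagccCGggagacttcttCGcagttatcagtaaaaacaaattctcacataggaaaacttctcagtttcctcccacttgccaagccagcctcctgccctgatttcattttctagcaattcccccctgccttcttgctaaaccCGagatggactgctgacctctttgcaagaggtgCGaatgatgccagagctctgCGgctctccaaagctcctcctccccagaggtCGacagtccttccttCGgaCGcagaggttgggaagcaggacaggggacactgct
Nfix: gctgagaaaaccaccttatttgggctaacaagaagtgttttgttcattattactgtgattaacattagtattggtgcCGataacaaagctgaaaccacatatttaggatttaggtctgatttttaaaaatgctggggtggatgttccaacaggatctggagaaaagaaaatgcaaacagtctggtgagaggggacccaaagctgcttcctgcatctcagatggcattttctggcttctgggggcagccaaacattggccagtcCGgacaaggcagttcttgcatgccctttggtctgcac
Kdm7a: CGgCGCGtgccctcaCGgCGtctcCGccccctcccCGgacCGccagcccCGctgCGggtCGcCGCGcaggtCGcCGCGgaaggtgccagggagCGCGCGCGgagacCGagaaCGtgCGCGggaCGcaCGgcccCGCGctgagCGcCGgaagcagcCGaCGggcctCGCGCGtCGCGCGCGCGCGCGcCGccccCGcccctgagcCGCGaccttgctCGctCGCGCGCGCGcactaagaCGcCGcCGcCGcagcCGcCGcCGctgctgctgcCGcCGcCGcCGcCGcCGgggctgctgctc

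The windows printed for the genes that rose held 43 CpGs (Coro2a), 32 (Mgll), 44 (Neurl1b) and 52 (Dock8). Those of the genes that fell held 14 (Htr5a), 13 (Thpo) and 8 (Unc80). Nfix, a nuclear factor I transcription factor, had 2 CpGs in the window shown, 1 of 2 windows the table lists for it, and rose in dKO by 3.43 (log2). Kdm7a, a histone lysine demethylase, had 65 and fell by 0.60. The contrast between the first 7 windows did not extend to the called genes as a group. Median CpG counts were 31.0 in the 789 windows of 720 genes that rose, 33.0 in the 144 windows of 127 genes that fell, 34.0 in the 219 windows of 201 genes that did not pass and 23 in the 315 windows of 297 untested genes.

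Over all 1693 promoter windows that lay wholly inside a middle-width peak, the median was 30.0 CpGs (quartiles 21.0 and 39.0) and 70.3% G or C. Over the 32851 windows in the table it was 7 CpGs and 52.7%, and over the 28490 windows outside every peak 6.00 and 51.0%. Middle-width peaks resembled narrow ones in these counts, with 29.0 CpGs in 784 windows, whereas the 423 windows in broad peaks had a median of 21.0. No test was made, since windows of 1 gene or 1 peak share sequence.

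**Figure D1:**
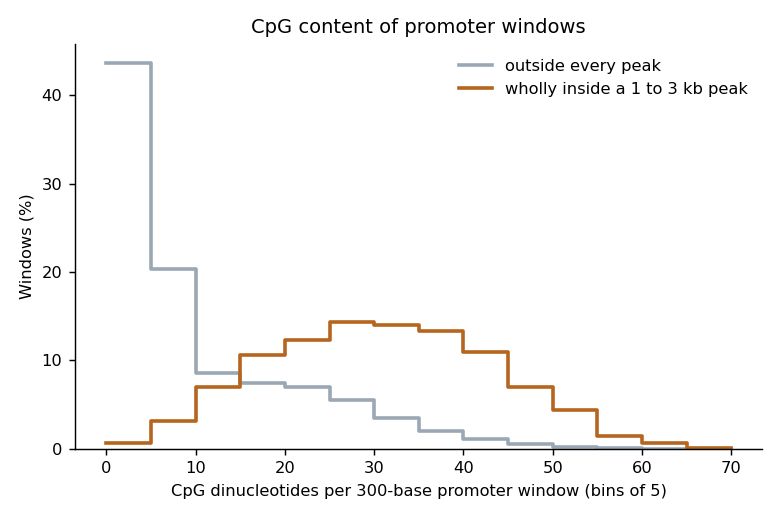
CpG dinucleotides per 300-base promoter window (bins of 5, x axis) as a percentage of windows (y axis) for windows outside every Suz12 peak and windows wholly inside a 1 to 3 kb peak. Most windows outside peaks lie in the lowest bins around a median of 6.00, and those inside the peaks spread around a median of 30.0.

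Short motifs were searched on both strands of the same windows. CGCG occurred in 90.0% of windows inside middle-width peaks and 38.0% of all windows, GCGC in 93.1% and 47.1%, and GGGCGG, the core of an Sp1 box, in 76.8% and 35.7%. CGCG and GCGC can overlap each other, and all 3 hold CpG or are made of G and C, so their shares move with base composition. TATAAA was found in 5.55% of windows inside the peaks and 13.6% of all, and CCAAT in 26.3% and 37.4%. GAGAG, at 61.8% and 62.0%, and CACGTG, the E-box palindrome, at 8.86% and 7.15%, were found at similar shares. Windows inside narrow peaks had much the same shares, with CGCG in 91.7%, GCGC in 95.5%, GGGCGG in 80.1%, TATAAA in 3.70% and CCAAT in 23.1%. In broad peaks CGCG was in 79.7%, GCGC in 86.8% and GGGCGG in 63.1%. A match describes the letters only.

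The middle-width peaks had a median width of 1514.5 bases (quartiles 1223.25 and 2001.75), and their number fell with width, from 1651 under 1.5 kb to 873, 565 and 285 in the next bins, each 0.5 kb wide. At the lower limit, a peak of 999 bases overlapped Ccnj or the kilobase around its ends, and peaks of 1000 bases lay at Fmnl1 and Zeb1. At the upper limit, the member at Ntrk2 had 2997 bases, the widest fell 1 base short of 3 kb and lay at chr5:30621266-30624264 with no gene end within 1 kb, and the peaks just outside it had 3001 bases (no gene end within 1 kb) and 3002 (at Gata6).

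Of the 3372 middle-width peaks on chromosomes 1 to 19 and X, 72.6% came within 1 kb of an end of an annotated gene. That share lay between those of narrow (58.7%) and broad peaks (86.2%). A further 21.1% lay inside a gene but over 1 kb from its ends, and 6.26% (211 peaks) lay outside genes, at a median of 8.92 kb from the nearest. On the chromosomes with promoter windows, 52.5% of 3254 peaks overlapped one and 42.3% held one whole, against 39.7% and 19.7% of narrow and 61.7% and 59.5% of broad peaks. The holding of whole windows rises with width by construction. The peaks sat to the downstream side of the start: in the 1669 that contained an annotated start site, the peak's centre was downstream in 73.0%, by a median of 228 bases over all 1669. The same side was favoured by narrow (73.5%) and broad peaks (69.1%).

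Chromosome X held few of them. It had 21 middle-width peaks, or 2.17 per 100 protein-coding genes, and autosomes had from 10.9 on chromosome 7 to 23.1 on chromosome 18. None lay on Y. Peaks of any width were few on X too, at 61, where autosomes had from 205 on chromosome 16 to 653 on chromosome 2. The middle-width peak farthest from any other peak, by 6573 kb, was also on X, at chrX:20059787-20061148 inside Chst7, a carbohydrate sulfotransferase gene, within 1 kb of an end but outside its promoter window.

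Middle-width peaks were spaced like narrow ones at the median but more often had a close neighbour. The gap to the nearest peak of any width had a median of 55.7 kb for both kinds and 10.4 kb for broad peaks, and a neighbour stood within 10 kb of 23.2% of middle-width, 18.2% of narrow and 49.8% of broad peaks. The nearest other middle-width peak was at a median of 132 kb. No gap was under 806 bases for any class, and the closest pair of middle-width peaks stood 809 bases apart at Phox2a, a homeobox gene of autonomic neurons (chr7:101817934-101819336 and chr7:101820146-101822363). With gaps under 10 kb, 470 of the peaks (13.9%) fell into 201 runs, of which 41 had 3 or more members.

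Several of the longest runs covered developmental loci. Runs of 4 lay over Hoxb3 and Hoxb4 with the microRNA gene Mir10a (chr11:96310345-96333760), over Hoxc6, Hoxc8 and Hoxc9 (chr15:102981521-103001909), at the proneural and limb homeobox gene Irx2 (chr13:72623735-72637192), at the kidney and eye regulator Pax2 (chr19:44725988-44747445) and at the forebrain gene Lhx2 (chr2:38336130-38352942). Genes named for a run overlap its span, gaps included, or lie within 1 kb of it, so not every one has a peak at an end. Hoxb3, Hoxb4 and Hoxc9 had no middle-width peak within 1 kb of an end and are not counted as genes at such peaks. A run of 7 followed the protocadherin gamma genes on chromosome 18 over 39.7 kb, and a run of 5 the interferon genes at Ifnz on chromosome 4 over 18.7 kb. In the Hox clusters such peaks stood beside broader ones: of the 13 Hox genes with a middle-width peak within 1 kb, 5 also had a broad one.

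The longest run, of 8, had no gene within it and belonged to a regular array on chromosome 6 between Hrh1, a histamine receptor gene, and Atg7, an autophagy gene. The array was noticed after the positions had been inspected and is given as a description. It held 47 peaks, 22 of middle width and 25 narrow, over 139.6 kb (chr6:114492817-114632415), and its widest had 1527 bases. Distances between neighbouring centres had a median of 2468 bases. Of the 46 distances, 38 were nearest to that median (1914.5 to 2751), 7 to 2 times it (4440.0 to 5004) and 1 to 5 times it (12253). Divided by these multiples, their means were 2433, 2436 and 2451 bases, so that the wider distances were close to whole multiples of the shorter one. The sequence of the array was not analysed here, and how reads from near-identical repeats were treated is not stated in the sources used here. The flanking genes lay 9.52 kb (Hrh1) and 10.7 kb (Atg7) away and are thus not counted with the peaks. Hrh1 was at 0.0688 ± 0.119 CPM in WT, 2.24 ± 0.362 in dKO and 0.191 ± 0.0639 in rescue, and Atg7 at 23.5 ± 0.949, 35.02 ± 5.09 and 32.3 ± 0.0977 (SD, n = 3 libraries each).

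**Figure D2:**
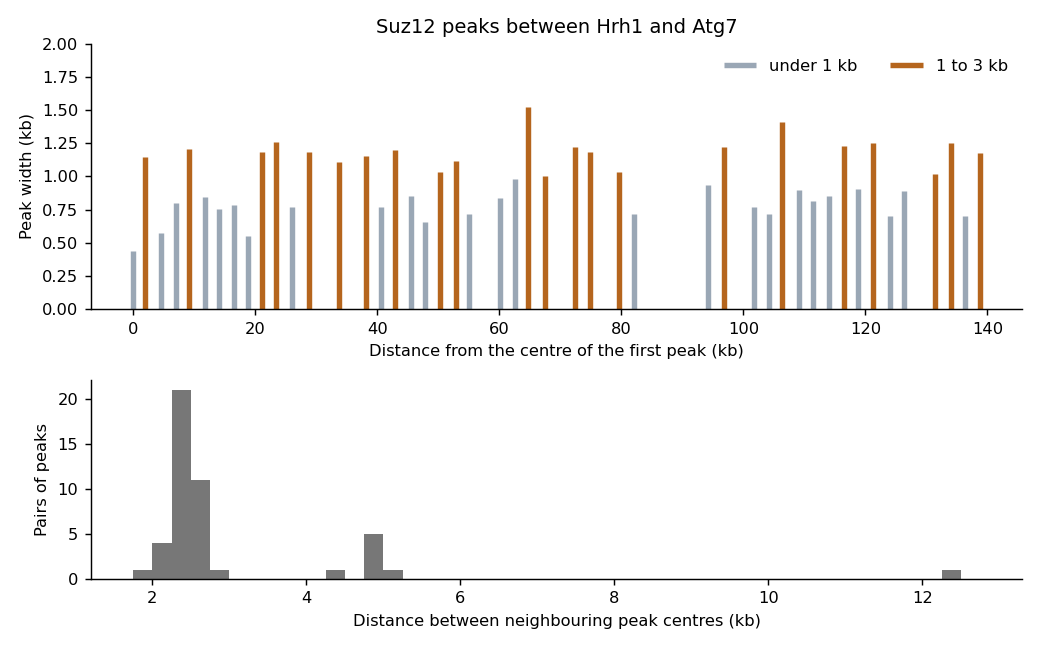
Upper panel: each Suz12 peak between Hrh1 and Atg7 by the distance of its centre from that of the first (kb, x axis) and its width (kb, y axis), coloured by width class. Lower panel: number of neighbouring pairs by the distance between their centres (kb), with 38 distances around a median of 2468 bases, 7 near 2 times and 1 near 5 times that distance.

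RNA was then read at the genes whose ends the peaks reached. A gene was linked to a peak that overlapped, by at least 1 base, a window reaching 1 kb to each side of a gene end. This gave 2441 genes in the count tables, 2248 of them protein coding, from 2213 peaks (65.6%). A gene could share its peak with a neighbour (274 peaks reached 2 or more genes), and 54 genes had 2 middle-width peaks. Of the 2441 genes, 47 also had a broad peak. Levels are in CPM (counts per library, scaled to a common depth with TMM factors) and are compared between libraries, not between genes. Libraries held 12457622 to 36009529 counts. Of the targeted genes, neither of which is linked to a middle-width peak, Ezh1 was at 47.9 to 53.4 CPM in WT, 1.80 to 2.34 in dKO and 2.33 to 3.42 in rescue, and Ezh2 at 308 to 314, 191 to 214 and 549 to 576. Gene counts cannot show a deleted exon, so they check the labels only in part. In a principal component analysis dKO replicate 3 stood apart on the second component, at 12.3 against -7.46 and -6.42 for the other dKO libraries. Nothing in the labels says that replicates were separate cultures, so p-values cover the spread among these libraries, and that spread may be technical.

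Genes at middle-width peaks were detected more often in dKO. At 1 CPM or more stood 52.6% to 52.8% of the 2441 genes in the 3 WT libraries, 65.4% to 66.2% in the dKO libraries and 55.1% to 55.6% in the rescue libraries. The 3 groups did not overlap. Over all placed genes the shares were 49.8% in WT, 53.5% to 53.7% in dKO and 50.1% to 50.2% in rescue. These are bulk samples, in which fewer cells of a type and less RNA per cell cannot be told apart.

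**Figure D3:**
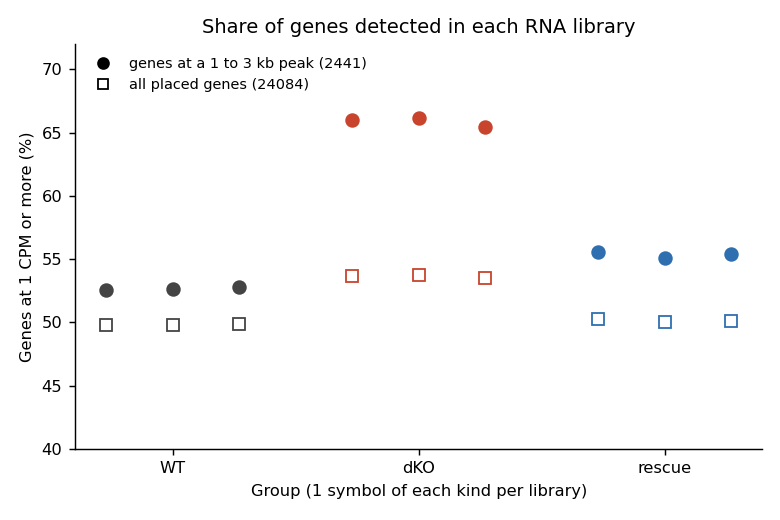
Percentage of genes at 1 CPM or more (y axis) in each RNA library by group (x axis), for the genes at a 1 to 3 kb peak (filled circles) and all placed genes (open squares). The dKO libraries lie at 65.4% to 66.2% for genes at the peaks, above the WT and rescue libraries.

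Comparing dKO with WT asks how these genes are expressed where both methyltransferases are labelled as absent. Of the 2441 genes 1808 (74.1%) passed the expression filter, and 633 did not, 122 of them without a read in any library. A gene near 0 in WT can pass through dKO alone, so the counts describe tested genes and not all genes at the peaks. Among the tested genes 1179 (65.2%) rose, where 33.7% of all 14145 tested genes rose, and 242 (13.4%) fell, where 31.0% of all fell. The other 387 did not pass (edgeR quasi-likelihood test, Benjamini-Hochberg adjusted p under 0.05). Their median log2 fold change was 0.91, against -0.0026 over all tested genes. By over 2-fold 852 rose (47.1%), where 19.1% of all did, and 48 fell (2.65%), where 4.39% of all did. When only genes with a mean of at least 2 CPM in WT were counted, 609 of 1121 rose and 222 fell, with a median of 0.40, and among all tested genes at that level 25.2% rose and the median was -0.09.

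The same shares are given by the width of the peak at the gene. Of 1636 tested genes with only narrow peaks 47.4% rose (a median of 0.23), and of 277 with a broad peak 78.3% rose (a median of 1.87), while of 10406 without a peak 25.1% rose and 36.2% fell (a median of -0.09). Classes differed in how many genes were low in WT: 47.2% of all genes at middle-width peaks, 30.9% of those with only narrow peaks and 73.2% of those with a broad one were under 1 CPM there. Among genes with a mean of at least 2 CPM in WT, a limit chosen after seeing the data, the shares that rose were 54.3% of 1121 genes at middle-width peaks, 38.8% of 1289 with only narrow peaks, 57.5% of 87 with a broad peak and 19.1% of 8709 without a peak. Within the middle-width peaks the steps were not regular: 61.6% rose in the bin from 1000 bases, 68.8% from 1500, 69.0% from 2000 and 61.9% from 2500 (867, 458, 306 and 147 tested genes without a broad peak), and with the same limit in WT 50.7%, 56.8%, 60.2% and 57.5% of 584, 271, 181 and 80 genes. Genes whose promoter window overlapped a middle-width peak, wholly or in part, rose in 67.4% of 1166 cases. Those whose window lay outside every peak, so that the peak touched another stretch near an end of the gene, rose in 44.2% of 172. Differences between these shares were not tested, since genes are not replicates.

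**Figure D4:**
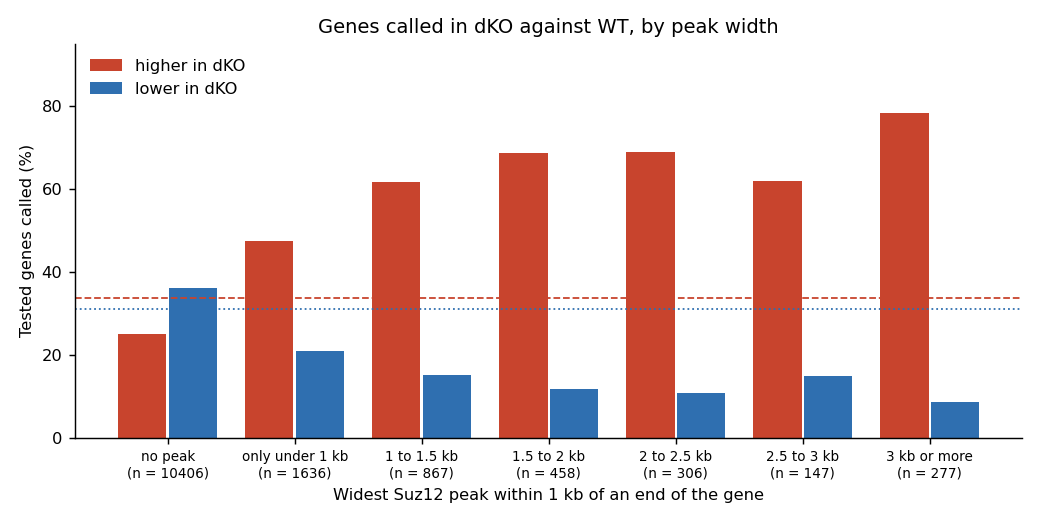
Percentage of tested genes called higher or lower in dKO against WT (y axis) by the width of the widest Suz12 peak within 1 kb of an end of the gene (x axis, number of tested genes in brackets; the 4 bins of middle width leave out genes that also have a broad peak). Dashed and dotted lines mark the 33.7% and 31.0% of all tested genes called higher and lower, and the bars for higher genes stand at 61.6% to 69.0% over the 4 middle bins.

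Markers of other cell types moved between the same groups. Summed over 11 markers of primitive endoderm, an early extraembryonic lineage, levels were 80.2 to 83.8 CPM in WT, 238 to 265 in dKO and 85.8 to 93.7 in rescue, with 0 markers without reads in dKO. Of these, Amn, Col4a1, Sox17 and Sox7 are themselves at middle-width peaks, as are Fbn1 and Twist2 of the fibroblast markers and Eomes and Hand1 of the trophoblast markers. The 10 fibroblast markers summed to 6.70 to 8.39, 58.9 to 64.9 and 14.7 to 15.6 CPM, with Col3a1 and Lum at 0 in dKO, and the 10 trophoblast markers to 200.0 to 214, 273 to 296 and 169 to 175. Col3a1, Dcn, Lum, Postn and Twist2 were at 0 in WT, and Dcn, Lum and Postn in rescue. In dKO against WT, 8 of 9 tested primitive endoderm and 5 of 5 tested fibroblast markers rose and 0 fell. Among 9 tested trophoblast markers 6 rose and 2 fell, and of Eomes and Hand1, which also have a broad peak, 1 rose and 1 fell. The 7 ES cell markers, none of them at a middle-width peak and none without reads, summed to 5783 to 5943, 4999 to 5219 and 6772 to 6826 CPM. In dKO against WT 1 of them rose and 5 fell. The part of other cell types in the result was not tested.

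Among genes with a mean of at least 2 CPM over the 9 libraries whose groups did not overlap, the largest rises in dKO at middle-width peaks were led by Coro2a, Mgll and Fgf15. Coro2a, an actin-binding coronin with its start in a 1903-base peak (chr4:46600598-46602500), was at 0.551, 0.280 and 0.361 CPM in the WT libraries, 13.9, 16.1 and 17.9 in those of dKO and 0.486, 0.514 and 0.648 in those of rescue. The dKO libraries were all far above the rest, and it rose by 5.38 ± 0.21 (log2 fold change ± SE, edgeR with Benjamini-Hochberg adjusted p = 1.71e-09); it also has a broad peak within 1 kb of an end. Mgll, monoglyceride lipase (chr6:88723457-88725510), was at 0.689, 0.233 and 0.722 CPM in the WT libraries, 18.9, 20.4 and 14.9 in those of dKO and 1.69, 1.26 and 1.73 in those of rescue. It rose by 5.08 and stayed between the other groups in rescue. Fgf15, a fibroblast growth factor known for bile acid signalling (chr7:144896427-144897872), was at 0.413, 0.187 and 0.309 CPM in the WT libraries, 12.1, 11.3 and 6.07 in those of dKO and 0.314, 0.420 and 0.216 in those of rescue. dKO replicate 3 was lower than the other two, but no groups overlapped in dKO against WT, and it rose by 5.04.

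Dbx2, a homeobox gene of the ventral spinal cord (chr15:95653043-95654841), was at 0.207, 0.0933 and 0.258 CPM in the WT libraries, 7.38, 7.51 and 2.71 in those of dKO and 0.0286, 0.0467 and 0.173 in those of rescue. Its dKO libraries again split, with replicate 3 lowest, and it rose by 4.95 ± 0.55 (edgeR, Benjamini-Hochberg adjusted p = 1.03e-05). The cell adhesion gene Alcam (chr16:52452247-52453324) was at 0.482, 0.560 and 0.309 CPM in the WT libraries, 11.7, 14.4 and 13.9 in those of dKO and 1.97, 1.68 and 1.77 in those of rescue, a rise of 4.87. The proton pump gene Atp12a (chr14:56364589-56367305) was at 2.00, 2.47 and 2.17 CPM in the WT libraries, 64.1, 67.3 and 46.6 in those of dKO and 2.89, 2.89 and 3.46 in those of rescue, a rise of 4.73. In both, all dKO libraries stood above all others.

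Among the rest of the 10 named rises were the postsynaptic adhesion gene Lrrc4b (4.67), the tetraspanin Tspan18 (4.59), the ubiquitin ligase Neurl1b of the Notch pathway (4.57) and the guanine exchange factor Dock8 (4.51). Neurl1b was at 0.482, 0.420 and 0.155 CPM in the WT libraries, 8.29, 9.17 and 7.51 in those of dKO and 0.457, 0.187 and 0.346 in those of rescue, and Dock8 at 0.482, 0.560 and 0.567 CPM in the WT libraries, 10.6, 12.1 and 14.5 in those of dKO and 0.657, 0.374 and 0.605 in those of rescue. For both, the promoter windows printed above lie in the peaks chr17:26414574-26415751 and chr19:24998749-25000201, and WT and rescue libraries overlapped.

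The largest falls at middle-width peaks were taken under the same limit on the mean level and the same rule on overlap. Htr5a, a serotonin receptor gene (chr5:27841631-27843063), was at 5.03, 5.32 and 5.16 CPM in the WT libraries, 0.151, 0.299 and 0.639 in those of dKO and 15.1, 17.04 and 15.7 in those of rescue. Every dKO library was below every WT library and every rescue library above, and the fall in dKO was -3.67 ± 0.25 (edgeR, Benjamini-Hochberg adjusted p = 1.59e-07; -4.37 without dKO replicate 3). Nkx1-2, a homeobox gene of the tail-end progenitors (chr7:132596810-132597870), was at 17.1, 15.7 and 15.3 CPM in the WT libraries, 1.66, 1.54 and 1.72 in those of dKO and 30.6, 28.5 and 32.9 in those of rescue, a change of -3.29 in dKO. Thpo, the thrombopoietin gene (chr16:20732869-20734824), was at 7.23, 6.81 and 6.60 CPM in the WT libraries, 0.753, 0.768 and 0.759 in those of dKO and 3.40, 4.20 and 4.80 in those of rescue, a change of -3.16. In Thpo the rescue libraries lay between the other groups without overlap.

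Unc80, a subunit of the sodium leak channel (chr1:66467546-66468867), was at 3.65, 3.36 and 4.02 CPM in the WT libraries, 0.377, 0.171 and 0.679 in those of dKO and 6.15, 5.32 and 6.31 in those of rescue, a change of -3.11 (-3.87 without dKO replicate 3). The transcription factor gene Ebf1 (chr11:44617825-44620213) was at 24.1, 24.8 and 23.4 CPM in the WT libraries, 3.39, 2.56 and 3.63 in those of dKO and 16.5, 20.5 and 15.6 in those of rescue, a change of -2.92. Aldh1a2, which makes retinoic acid (chr9:71215131-71218002), was at 14.3, 14.1 and 16.8 CPM in the WT libraries, 4.82, 4.18 and 2.79 in those of dKO and 9.43, 9.67 and 9.77 in those of rescue, a change of -1.97. In all 3 genes dKO was lowest, and for Ebf1 and Aldh1a2 rescue lay below WT.

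**Figure D5:**
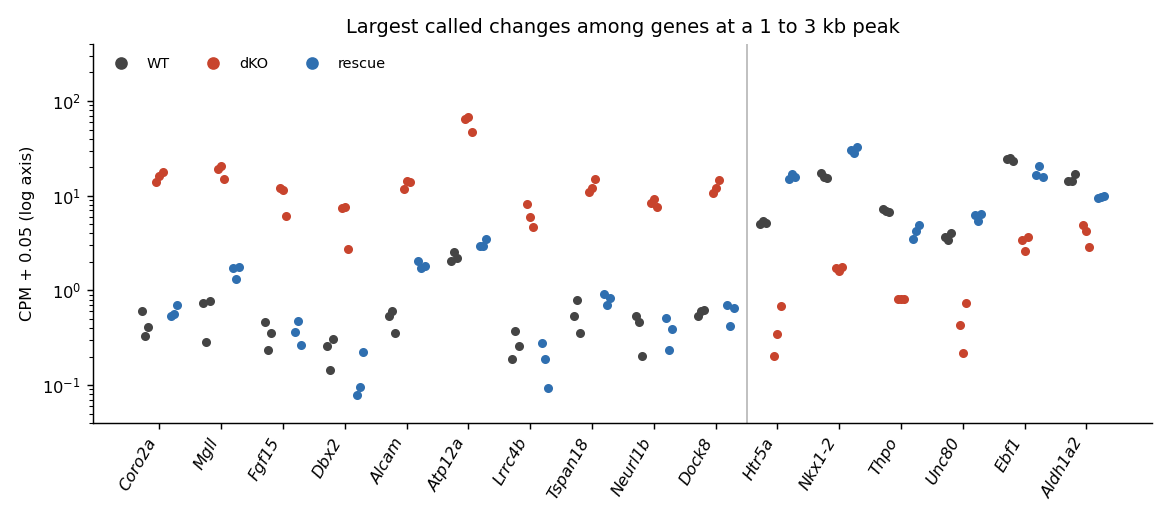
Level of each named gene in every library (CPM + 0.05, log axis) for the 10 largest rises and, right of the line, the 6 largest falls in dKO against WT among genes with a mean of at least 2 CPM and no overlap of the groups, with 1 point per library coloured by group. In the 10 genes on the left all dKO points lie above the WT points, and in the 6 on the right all lie below.

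Over the 6 lists of transcription factor genes, 54 of 80 tested genes at middle-width peaks rose in dKO (67.5%), near the 65.2% of all tested genes at such peaks. Some of the listed genes also have a broad peak, and of all 30 tested genes with peaks of both widths 28 rose (93.3%, a median of 2.69). The gene lists used here were drawn up with earlier results of these data known. Values for a whole list, with or without a peak, are given for some lists only. Of 39 listed Hox genes, which pattern the body axis, 13 had such a peak and 9 were tested: 8 rose, 0 fell and 1 did not pass (a median of 2.57). With or without such a peak, 28 of 30 tested Hox genes rose and 0 fell (a median of 2.85). Hoxc10 was at 0.620, 0.513 and 0.670 CPM in the WT libraries, 9.57, 11.1 and 9.62 in those of dKO and 1.80, 1.87 and 1.82 in those of rescue, with no overlap between groups, and rose by 4.07. Hoxd13, the most posterior gene of its cluster, was at 0.551, 0.560 and 0.619 CPM in the WT libraries, 5.27, 5.25 and 7.95 in those of dKO and 2.80, 2.29 and 2.59 in those of rescue and rose by 3.42. Hoxa5 was the gene that did not pass, at 0.138, 0.187 and 0.464 CPM in the WT libraries, 0.452, 0.384 and 0.599 in those of dKO and 0.372, 0.187 and 0.303 in those of rescue with overlapping groups and a log2 fold change of 0.83; without WT replicate 3 it was called (edgeR, Benjamini-Hochberg adjusted p = 0.0274).

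In the other transcription factor lists rises outnumbered falls as well, except among zinc-finger genes. Of 25 tested homeobox genes outside the Hox clusters 15 rose, 5 fell and 5 did not pass (a median of 1.50), with the hindlimb gene Pitx1 at 1.31, 0.699 and 0.825 CPM in WT and 18.5, 17.4 and 16.8 in dKO. With or without a peak, 49 of 71 tested homeobox genes of this list rose and 10 fell (a median of 1.78). A broad peak was also present at 13 of its 42 genes with a middle-width peak. Of 16 Gata, Sox and T-box genes 13 rose, 2 fell and 1 did not pass (a median of 2.35). In the whole list, with or without a peak, 21 of 32 tested genes rose and 6 fell (a median of 1.64). A broad peak was also present at 4 of the 19 listed genes with a middle-width peak. Tbx20, a heart factor, was at 3.31, 2.28 and 2.73 CPM in the WT libraries, 27.3, 28.7 and 46.8 in those of dKO and 3.80, 4.11 and 3.54 in those of rescue, and Tbx15, a skeletal and fat factor, at 3.86, 4.57 and 4.38 CPM in the WT libraries, 41.1, 43.3 and 41.8 in those of dKO and 6.26, 5.98 and 6.74 in those of rescue. They rose by 3.65 and 3.29, with dKO above all other libraries in both. Tbx18 did not pass in dKO against WT, with a log2 fold change of 0.59 and overlapping libraries, though it was called without dKO replicate 1 or without dKO replicate 2 (edgeR, Benjamini-Hochberg adjusted p = 0.0343 and 0.0187). Without dKO replicate 3 its log2 fold change was 0.15.

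Of 12 Pax and forkhead genes 8 rose, 3 fell and 1 did not pass (a median of 0.91), and Pax8, a thyroid and kidney factor, was at 0.138, 0.0466 and 0.155 CPM in the WT libraries, 3.32, 4.69 and 3.47 in those of dKO and 0.314, 0.140 and 0.216 in those of rescue. Of 6 lineage genes of the basic helix-loop-helix family 5 rose, 0 fell and 1 did not pass (a median of 1.35). Olig2, which specifies motor neurons and oligodendrocytes, was at 25.3, 26.4 and 22.7 CPM in the WT libraries, 94.2, 89.4 and 72.98 in those of dKO and 77.7, 85.1 and 83.6 in those of rescue, so that dKO and rescue overlapped and both lay above WT. Hand1, a heart and trophoblast factor, was at 0.0689, 0.0466 and 0.103 CPM in WT and 2.56, 1.88 and 6.07 in dKO, rising by 5.53, or by 4.78 without dKO replicate 3. It also has a broad peak within 1 kb of an end. Of 12 zinc-finger lineage genes, by contrast, 5 rose, 6 fell and 1 did not pass (a median of -0.08), Osr2, a kidney and palate factor, rising by 4.10 and Ebf1 falling.

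Over the 5 lists of signalling genes, 42 of 66 tested genes at the peaks rose (63.6%), also near the 65.2% of all tested genes at such peaks. Of 22 tested Wnt pathway genes 15 rose, 3 fell and 4 did not pass (a median of 1.82). The whole Wnt list, with or without a peak, was alike: 29 of 44 tested genes rose and 9 fell (a median of 1.82). The receptors went both ways: Fzd6 was at 3.58, 3.68 and 3.97 CPM in the WT libraries, 21.2, 19.2 and 20.4 in those of dKO and 9.06, 9.67 and 7.91 in those of rescue and rose by 2.43, and Fzd7 was at 69.6, 71.9 and 70.8 CPM in the WT libraries, 21.6, 18.99 and 16.7 in those of dKO and 46.6, 46.3 and 49.7 in those of rescue and changed by -1.90. In both receptors rescue lay between the other groups without overlap. The Wnt response factor Tcf7 did not pass (-0.13), although its gene lies at a peak of 2015 bases; without WT replicate 3 it was called (edgeR, Benjamini-Hochberg adjusted p = 0.0365). Of 11 FGF pathway genes 6 rose, 2 fell and 3 did not pass (a median of 1.04), while of all 27 tested FGF genes, with or without a peak, 11 rose and 8 fell (a median of 0.034). Fgf10, a ligand of limb and lung budding, was at 5.16, 5.69 and 6.50 CPM in the WT libraries, 17.03, 17.96 and 19.6 in those of dKO and 30.4, 29.98 and 30.6 in those of rescue, and the feedback inhibitor Spry1 did not pass (0.03). Fgf10 was thus highest in rescue, not in dKO, and the groups did not overlap.

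Of 18 BMP and TGF-beta pathway genes 12 rose, 1 fell and 5 did not pass (a median of 1.24). The type I receptor gene Acvrl1 was at 0.413, 0.280 and 0.258 CPM in the WT libraries, 3.39, 3.93 and 3.67 in those of dKO and 0.600, 0.514 and 0.389 in those of rescue and the ligand gene Tgfb1 at 2.69, 2.52 and 2.63 CPM in the WT libraries, 13.9, 15.6 and 17.8 in those of dKO and 8.23, 8.26 and 8.99 in those of rescue. They rose by 3.55 and 2.60, while the type II receptor gene Acvr2a did not pass (0.10). Of 8 Hedgehog and Notch genes 4 rose, 2 fell and 2 did not pass (a median of 0.37). The Notch ligand gene Jag2 was at 6.20, 5.46 and 7.37 CPM in the WT libraries, 22.5, 24.7 and 22.2 in those of dKO and 14.2, 12.9 and 14.1 in those of rescue, and Ptch1, the Hedgehog receptor, at 65.8, 65.3 and 65.6 CPM in the WT libraries, 33.8, 38.5 and 38.8 in those of dKO and 44.6, 44.03 and 46.6 in those of rescue. Jag2 rose by 1.87, Ptch1 changed by -0.82, and rescue lay between WT and dKO in both.

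Of 7 retinoic acid genes 5 rose, 1 fell and 1 did not pass (a median of 2.20). The retinoic acid carrier Crabp1 was at 13.01, 12.1 and 12.5 CPM in the WT libraries, 72.9, 70.2 and 53.7 in those of dKO and 13.9, 12.7 and 15.00 in those of rescue, and the synthesizing enzyme Aldh1a3 at 2.75, 2.19 and 2.63 CPM in the WT libraries, 10.4, 11.9 and 12.2 in those of dKO and 5.97, 7.61 and 8.08 in those of rescue. They rose by 2.39 and 2.20, in contrast to Aldh1a2 above, a related enzyme that fell. Rdh10, which acts before these enzymes, did not pass (-0.05).

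Over the 5 lists of cell surface and matrix genes, 70 of 99 tested genes rose (70.7%). They included the list with the largest share of rises among those with over 10 tested genes. Of 13 collagen, laminin and integrin genes 11 rose, 0 fell and 2 did not pass (a median of 2.05). In that whole list, with or without a peak, 40 of 62 tested genes rose and 9 fell (a median of 1.03). Col4a1, a basement membrane collagen with a 2847-base peak (chr8:11311203-11314049), was at 8.40, 9.47 and 9.13 CPM in the WT libraries, 124, 132 and 105 in those of dKO and 28.6, 23.7 and 27.1 in those of rescue, and the laminin receptor subunit Itga3 at 19.97, 18.04 and 20.9 CPM in the WT libraries, 81.6, 85.8 and 76.1 in those of dKO and 24.7, 21.3 and 22.7 in those of rescue. They rose by 3.73 and 2.05, with no overlap of any 2 groups. Of 38 ion channel genes 32 rose, 3 fell and 3 did not pass (a median of 1.98). With or without a peak, 61 of 88 tested ion channel genes rose and 11 fell (a median of 1.35). The potassium channel gene Kcnk6 was at 2.82, 2.47 and 2.73 CPM in the WT libraries, 18.01, 16.5 and 19.04 in those of dKO and 3.17, 3.27 and 3.46 in those of rescue, and the calcium-permeable channel gene Trpv4 at 1.17, 0.886 and 1.08 CPM in the WT libraries, 11.98, 11.1 and 13.3 in those of dKO and 1.37, 0.934 and 1.60 in those of rescue.

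Of 15 neurotransmitter receptor genes 11 rose, 3 fell and 1 did not pass (a median of 1.30). The glutamate receptor genes Grin1 and Grik3 rose by 2.72 and 1.30, Grin1 being at 2.48, 2.98 and 2.48 CPM in the WT libraries, 18.2, 16.9 and 17.8 in those of dKO and 4.14, 4.30 and 4.63 in those of rescue. Of 23 axon guidance genes 12 rose, 2 fell and 9 did not pass (a median of 0.57). The receptor gene Ephb2 was at 11.6, 11.1 and 10.6 CPM in the WT libraries, 76.8, 71.6 and 78.2 in those of dKO and 14.98, 17.6 and 15.8 in those of rescue, whereas its paralog Ephb3 was at 76.8, 71.01 and 84.00 CPM in the WT libraries, 76.8, 76.5 and 75.98 in those of dKO and 84.4, 81.4 and 82.8 in those of rescue. Ephb2 rose by 2.77, and Ephb3 did not pass, with a log2 fold change of -0.02 and overlapping libraries. Of 10 cadherins and protocadherins 4 rose, 1 fell and 5 did not pass (a median of 0.40), with Cdh4, the retinal cadherin, at 1.31, 1.17 and 1.08 CPM in the WT libraries, 18.8, 18.9 and 17.8 in those of dKO and 1.66, 1.54 and 1.99 in those of rescue.

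Of all 24084 placed genes 10.1% were at a middle-width peak. Of 14 PRC2 genes only Phf19, an accessory subunit, was, and it rose by 0.73. Of 25 PRC1 genes 5 (20%) were, of which 4 rose and 1 fell (Auts2, Bmi1, Cbx2, Pcgf5 and Yaf2). In the whole PRC1 list, with or without a peak, 10 of 25 tested genes rose and 10 fell (a median of -0.05). Pcgf5 was at 7.92, 7.79 and 9.49 CPM in the WT libraries, 25.2, 27.01 and 37.3 in those of dKO and 16.2, 13.3 and 14.6 in those of rescue and Bmi1 at 19.9, 21.8 and 22.6 CPM in the WT libraries, 35.5, 36.4 and 36.9 in those of dKO and 27.8, 24.2 and 26.3 in those of rescue, and both rose, by 1.83 and 0.76. Of 24 pluripotency genes only Lin28b had such a peak, and of 10 D cyclins and CDK inhibitors none had. Of 81 cytosolic ribosomal protein genes only Rpl7 had one, a 1041-base peak that it shares with Rdh10.

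A middle-width peak did not mean a silent gene. The genes with the most reads in WT were taken among those whose promoter window overlaps such a peak. Where no promoter window was listed, a peak within 1 kb of an end sufficed. Wnk1, Sfrp1, Rpl7 and Gab1 were among them. The kinase gene Wnk1 was at 590.2, 540.5 and 546 CPM in the WT libraries, 449.9, 541 and 583 in those of dKO and 653, 742 and 683 in those of rescue. It did not pass in dKO against WT. The secreted Wnt inhibitor gene Sfrp1 was at 549.9, 541 and 517 CPM in the WT libraries, 771, 783 and 724 in those of dKO and 784, 828 and 822 in those of rescue and rose by 0.50. The adaptor gene Gab1 rose by 0.16, a call that was lost without WT replicate 1, without WT replicate 2 or with no filter (edgeR, Benjamini-Hochberg adjusted p = 0.0507 to 0.0651). Genes next to the width limits were as varied. Fmnl1 rose by 0.70, Ntrk2, a neurotrophin receptor, by 3.80, and Zeb1, a repressor of epithelial genes, changed by -0.22, a call lost without WT replicate 2, without dKO replicate 2 or at a mean of at least 2 CPM (edgeR, Benjamini-Hochberg adjusted p = 0.0531 to 0.0700).

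Genes that share a middle-width peak did not always move together. Among 122 pairs of tested genes linked to the same peak, both rose in dKO in 33 pairs, both fell in 9 and they were called in opposite directions in 13. In 29 pairs only 1 gene was called and rose, in 20 only 1 was called and fell, and in 18 neither was called. Over all tested genes at middle-width peaks 65.2% rose and 13.4% fell, and genes in such pairs need not be like the rest. How often paired genes would differ given their own shares was not tested. At the closest pair of peaks Phox2a rose by 1.50, from 0.826, 0.793 and 0.516 CPM in WT and 2.49, 2.01 and 1.68 in dKO, while Inppl1, the phosphatase gene whose end reaches the second peak, was at 91.1, 98.1 and 96.9 CPM in WT and 68.7, 70.99 and 61.9 in dKO and changed by -0.51. The kit does not mark strand, so reads from overlapping neighbours cannot be told apart.

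MicroRNA hairpins inside the peaks are listed for position only, since polyA gene counts do not measure mature microRNAs. Of 1005 hairpins in the RefSeq table, 27 lay wholly inside a middle-width peak. Among them were Mir9-1 and Mir9-3, which act in neural progenitors, Mir375 of islet cells, Mir137 of neurons, Mir203 of skin and Mir219a-2 of oligodendrocytes.

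Comparing rescue with dKO asks how the same genes stand where EZH2 is labelled as expressed again. The comparison shares its dKO libraries with the one above, so that opposite signs in both are not independent. Of the 1808 tested genes 1192 (65.9%) fell in rescue against dKO, where 38.2% of all tested genes fell, and 240 (13.3%) rose, where 32.1% of all rose (edgeR, Benjamini-Hochberg adjusted p under 0.05). Their median log2 fold change was -0.83, against -0.04 over all tested genes. By over 2-fold 807 fell (44.6%), where 19.9% of all did, and 69 rose (3.82%), where 5.03% of all did. With a mean of at least 2 CPM in WT, 670 of 1121 fell (59.8%) and 198 rose (17.7%), with a median of -0.45. Among all tested genes at that level 31.9% fell and 37.9% rose (a median of 0.05).

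Under the same limits on level and overlap, the largest falls were Dbx2 (-6.15), Lrrc4b (-5.30), Atp2c2 (-5.02), Fgf15 (-4.92) and Coro2a (-4.87). The values of Dbx2 and Lrrc4b rest on few reads in rescue, 6 and 12 counts over the 3 libraries, and without rescue replicate 3 Dbx2 was at -7.12 and without rescue replicate 1 Lrrc4b at -5.99. Atp2c2, a calcium and manganese pump gene (chr8:119699033-119700410), was at 0.826, 0.653 and 0.567 CPM in the WT libraries, 6.03, 7.68 and 7.39 in those of dKO and 0.257, 0.187 and 0.173 in those of rescue. Its rescue libraries lay below those of WT as well as those of dKO.

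Among the largest rises under these limits in rescue against dKO were Htr5a (5.29), Nkx1-2 (4.22), Spry4 (3.91) and Unc80 (3.81). Without dKO replicate 3, Htr5a was at 5.99, Spry4 at 4.85 and Unc80 at 4.57. Spry4, a feedback inhibitor of FGF signalling (chr18:38600380-38601490), was at 0.207, 0.233 and 0.206 CPM in the WT libraries, 0.226, 0.171 and 0.639 in those of dKO and 5.83, 4.67 and 6.36 in those of rescue. These 4 genes were above their WT level in every rescue library; in Spry4, WT and dKO overlapped.

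By list, fewer genes passed in this comparison for several groups. Of 9 Hox genes 0 rose, 7 fell and 2 did not pass (a median of -1.28), and of 38 ion channel genes 3 rose, 27 fell and 8 did not pass (a median of -1.55). Of 16 Gata, Sox and T-box genes 3 rose, 9 fell and 4 did not pass (a median of -0.72), and of 13 collagen, laminin and integrin genes 2 rose, 8 fell and 3 did not pass (a median of -1.53). Of 22 Wnt genes 2 rose, 13 fell and 7 did not pass (a median of -1.07). Tbx18 was among the genes that rose, at 2.07, 1.73 and 1.50 CPM in the WT libraries, 1.96, 1.92 and 3.79 in those of dKO and 10.1, 10.2 and 10.4 in those of rescue, and Fgf10, above, was another.

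Comparing rescue with WT asks which genes at the peaks still differ. Of the 1808 tested genes 530 (29.3%) rose in rescue against WT, where 26.8% of all tested genes rose, and 429 (23.7%) fell, where 27.3% of all fell (edgeR, Benjamini-Hochberg adjusted p under 0.05). These shares are near the background. The median log2 fold change was 0.10, against 0.0016 over all tested genes, and it was -0.033 when only genes at 2 CPM or more in WT were counted (314 rose and 372 fell). Those were 28.0% and 33.2% of the genes at the peaks. Among all tested genes at that level 26.9% rose and 31.3% fell (a median of -0.026), so these values too were near the background. By over 2-fold 230 rose (12.7%), where 6.43% of all did, and 113 fell (6.25%), where 6.50% of all did.

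Genes on chromosomes 14 and 3 were shifted as a whole in rescue, also where no peak was near. Genes without a peak had a median log2 fold change in rescue against WT of -0.88 on chromosome 14 (343 genes) and -0.45 on chromosome 3 (460 genes), and of -0.71 and -0.35 in rescue against dKO. Without these chromosomes 502 genes at middle-width peaks rose and 356 fell in rescue against WT, and 230 rose and 1070 fell in rescue against dKO. Atp12a and Sall2 lie on chromosome 14, and Foxo1, Tbx15 and Celsr2 on chromosome 3, so their rescue values are to be read beside this shift. Not all of them were lower in rescue than in WT. Foxo1 changed by -0.65 against WT and Celsr2 by 0.44, and Atp12a and Tbx15 stood above all WT libraries in every rescue library. Sall2, a zinc-finger gene, changed by -0.60 in rescue against WT, and by 0.28 after the median of its chromosome was taken off. Its call was lost without any 1 of WT replicates 1 and 3 and the 3 rescue libraries (edgeR, Benjamini-Hochberg adjusted p = 0.0567 to 0.119).

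Under the same limits, the largest rises in rescue against WT were in Id3, Spry4, Crmp1, Slc7a2 and Crispld2. Id3, an inhibitor of helix-loop-helix factors and a BMP target (chr4:136143493-136145562), was at 0.757, 1.17 and 1.13 CPM in the WT libraries, 2.26, 3.46 and 9.50 in those of dKO and 27.9, 23.3 and 28.6 in those of rescue. It rose by 4.67 ± 0.46 (edgeR, Benjamini-Hochberg adjusted p = 2.07e-05), and dKO replicate 3 stood above the other two. Crmp1, a collapsin response mediator of axon growth (chr5:37241677-37243701), was at 2.13, 2.05 and 1.75 CPM in the WT libraries, 3.84, 4.35 and 7.23 in those of dKO and 24.7, 24.5 and 26.2 in those of rescue, a rise of 3.67. In both genes rescue lay above dKO, and dKO above WT.

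Slc7a2, an arginine transporter gene (chr8:40862042-40863235), was at 1.31, 0.886 and 0.980 CPM in the WT libraries, 17.6, 18.9 and 22.3 in those of dKO and 8.26, 9.67 and 8.65 in those of rescue, and the secreted protein gene Crispld2 (chr8:119992002-119993873) at 0.413, 0.513 and 0.516 CPM in the WT libraries, 6.71, 6.74 and 7.31 in those of dKO and 3.60, 4.34 and 2.90 in those of rescue. They rose by 3.09 and 2.87 against WT, with rescue between WT and dKO. Of 13 collagen, laminin and integrin genes 9 rose in rescue against WT, 1 fell and 3 did not pass (a median of 0.87), and of 16 Gata, Sox and T-box genes 10 rose, 2 fell and 4 did not pass (a median of 1.15). Of 9 Hox genes 4 rose and 0 fell (a median of 0.31), and of 38 ion channel genes 15 rose and 4 fell (a median of 0.51). The whole lists, with or without a peak, leaned upward too. Of 30 tested Hox genes 13 rose and 2 fell (a median of 0.99), and of 88 ion channel genes 29 and 13 (0.33). Of 62 collagen, laminin and integrin genes 21 rose and 12 fell (0.21), and of 32 Gata, Sox and T-box genes 13 and 7 (0.35). Some further lists leaned upward as well, and others did not. Among 8 Hedgehog and Notch genes 1 rose and 4 fell (a median of -0.21). Among 12 zinc-finger lineage genes 2 rose and 4 fell (a median of -0.40), and among 15 neurotransmitter receptor genes 4 rose and 3 fell (a median of -0.12).

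Under these limits, the largest falls in rescue against WT were in Rec114, Fndc1, Myb, Itpr2 and Greb1l. Rec114, a factor of meiotic DNA breaks (chr9:58822334-58824391), was at 78.2, 84.95 and 84.00 CPM in the WT libraries, 37.4, 34.9 and 36.4 in those of dKO and 11.5, 9.81 and 9.55 in those of rescue, and Myb, a transcription factor of blood progenitors (chr10:21159624-21161505), at 51.4, 49.6 and 47.4 CPM in the WT libraries, 13.1, 13.1 and 11.7 in those of dKO and 7.35, 7.52 and 7.22 in those of rescue. They changed by -2.99 and -2.75, and in both dKO lay between WT and rescue, so that rescue was farther from WT than dKO was. The matrix gene Fndc1 (chr17:7826845-7827924) was at 11.3, 11.9 and 11.1 CPM in the WT libraries, 10.4, 11.1 and 4.55 in those of dKO and 1.31, 1.63 and 1.51 in those of rescue, a change of -2.96. The calcium channel gene Itpr2 (chr6:146501315-146502508) changed by -2.53, from 4.34, 4.71 and 5.10 CPM in WT and 0.686, 1.31 and 0.519 in rescue. Greb1l, a cofactor of retinoic acid signalling (chr18:10324923-10326529), was at 2.89, 2.89 and 2.68 CPM in the WT libraries, 5.73, 6.95 and 9.06 in those of dKO and 0.429, 0.654 and 0.432 in those of rescue, a change of -2.50, and stood above WT in dKO and below it in rescue without overlap.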

How the data were processed

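RNA was measured in 9 polyA libraries, 3 each of WT, dKO and rescue, and Suz12 binding in 1 list of peaks; the other 61 ChIP samples were not used here. Per the submitters' processing notes, the tools were Trimmomatic, STAR 2.4.0 and HTSeq, and the build was mm10. The deposited RNA values are raw counts of reads per gene symbol, which the authors did not normalize; per the labels' protocols the kit was TruSeq v2, which does not mark strand. The deposited peak list holds other values, the start and end of each peak with no score; the caller and its threshold are not stated in those sources. Positions are printed 1-based.

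The width rule, the gene lists and the tests were chosen with earlier results of these data known. Of 24222 genes, 22855 were placed by symbol and 1229 by synonym on GRCm38.p6. Promoter windows, which hold no chromosome 18, matched 17947 of the placed genes. Counts were tested with edgeR 4.0.16 in R 4.3.3 (TMM, filterByExpr by group, glmQLFit robust, glmQLFTest, 1 fit of 9 libraries with a mean per group), two-sided, with Benjamini-Hochberg adjustment over 14145 genes and calls at 0.05; the code was tested on simulated data. Libraries of 1 group differed beyond sampling noise (chi-square per degree of freedom 2.15 to 22.6), so each counted as 1 sample. Named genes were the largest called changes each way without overlap of the groups and with 2 CPM or more on average (no Gm or Rik identifiers), then from each list the 2 smallest adjusted p and the most abundant gene that did not pass, the 5 genes of most reads in WT, and genes at the width limits and at the closest and most isolated peaks. Alternatives were DESeq2 1.42.0, its size factors, other filters, fits of 2 groups, a replicate block, leaving out each library, and other widths and gene links. A few genes that the rule names are not reported here.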

Additional observations from a re-analysis of the deposited data

How the results depend on the processing

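For genes at middle-width peaks, no alternative changed the direction of the median log2 fold change in dKO against WT or in rescue against dKO. In dKO against WT (0.91; 1179 rose, 242 fell) it was 0.66 at a mean of at least 2 CPM, 1.10 with no filter, 0.82 with genes within 5 kb, 0.88 without genes that also have a broad peak, 0.99 with peaks of 1.25 to 2.5 kb (144 fell), and 0.99 when centred on genes without a peak on the same chromosome. Leaving out 1 library gave 0.89 to 0.97. In rescue against dKO (-0.83) the same settings gave -0.66, -0.91, -0.76 with genes within 5 kb, -0.94 with peaks of 1.25 to 2.5 kb (142 rose) and -0.87 when centred; it was -0.79 in a fit of the 2 groups and -0.86 to -0.80 without 1 library. In rescue against WT (0.10) the median was 0.049 at a mean of at least 2 CPM, 0.13 with no filter, 0.081 in a fit of the 2 groups, 0.12 when centred and 0.090 to 0.13 without 1 library; 329 rose and 283 fell with peaks of 1.25 to 2.5 kb. Chosen after seeing the data, genes at 2 CPM or more in WT gave 0.40 (609 rose), -0.45 (670 fell) and -0.033 (314 rose), the last with its sign turned, and leaving out chromosomes 3 and 14 gave 0.13 in rescue against WT. All tested genes at 2 CPM or more in WT had a median of -0.026 in rescue against WT. DESeq2 called 1152 genes higher and 234 lower in dKO against WT. The share of peaks near a gene end was 62.8% when at least 0.5 of the peak had to lie in the window, 85.6% with a window of 5 kb and 58.2% with one of 0 kb, and 319 and 1026 peaks fell into runs with gaps under 5 kb and 50 kb.

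With the replicate number as a block, 1178 genes rose and 237 fell in dKO against WT, 240 and 1187 in rescue against dKO, and 525 and 421 in rescue against WT. Deviations of same-numbered libraries correlated at -0.11 to 0.20 across genes, so the numbers were not taken to pair the libraries.

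Some named genes that did not pass in dKO against WT turned sign without 1 library. Their ranges over the libraries left out were -0.018 to 0.21 for Acvr2a, -0.27 to 0.033 for Col26a1, -0.079 to 0.055 for Ephb3, -0.059 to 0.19 for Foxo1, -0.69 to 0.18 for Olig3, -0.16 to 0.37 for Pcdhga10, -0.12 to 0.090 for Rdh10, -0.061 to 0.15 for Spry1, -0.18 to 1.15 for Spry4 and -0.18 to 0.0067 for Wnk1. At a mean of at least 2 CPM, Ephb3 was at 0.050 and Rdh10 at 0.011. Sall2 turned to 0.28 in rescue against WT when centred on its chromosome. The causes were not tested. Depth limits genes with few reads: in the shallowest library, of 12457622 counts, 3 counts give 0.226 CPM, so lower levels there rest on under 3 reads.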
